A study of Mus musculus with 3 samples.

Results

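The NF-κB subunits and their feedback inhibitors were followed as 10 genes chosen by name, out of 32285 genes counted in each library. The 5 subunit genes were *Rel*, *Rela*, *Relb*, *Nfkb1* and *Nfkb2*, and the 5 inhibitor and feedback genes were *Nfkbia*, *Nfkbie*, *Nfkbiz*, *Tnfaip3* and *Bcl3*. The latter 5 are called inhibitors below for short. The name does not say that each product acts as an inhibitor, which was not measured. The data are 3 droplet-based scRNAseq libraries of pre-cDCs, cDC1s and cDC2s that had been sorted from MCA205 LA OVA tumours, a mouse fibrosarcoma line carrying the model antigen ovalbumin, 5 days after injection. The WT library came from wild-type mice, the sGSN-/- library from mice without secreted gelsolin, and the sGSN-/-Clec9a-/- library from mice that in addition lacked *Clec9a*, the gene of DNGR-1, a cDC1 receptor for actin exposed by dead cells. Each library came from a pool of tumours of co-housed male and female mice with a tumour on each flank, bred on a C57BL/6J background, so a genotype, its pool and its library cannot be told apart. Ages are given for the whole study only, as a range.

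The libraries held 12763 barcodes and 176578136 UMIs (WT), 8173 barcodes and 109270958 UMIs (sGSN-/-), and 9273 barcodes and 113411930 UMIs (sGSN-/-Clec9a-/-). A UMI stands for 1 captured transcript, so that copies made by PCR are counted once. A deposited annotation gave a cluster number to 5806 cDC1s, 2316 in the WT, 1712 in the sGSN-/- and 1778 in the sGSN-/-Clec9a-/- library, with medians of 14092, 14150 and 12231 UMIs per cell. The WT library shared 26 barcode sequences with the sGSN-/- library and 28 with the sGSN-/-Clec9a-/- library, and the latter pair shared 27. Among the cDC1s these overlaps were 2, 2 and 3 barcodes. Clusters are grouped as by the authors into early (4 and 1, 1332 cells), resting (5, 2, 3, 6 and 0, 3499 cells) and activated cDC1s (7, 8, 9 and 10). The activated clusters held 422 (cluster 7), 255 (cluster 8), 162 (cluster 9) and 76 cells (cluster 10), with median depths of 14253.5, 10867, 14033 and 11132.5 UMIs per cell, against 13930 in resting cDC1s. Cluster 11 (60 cells, median 2348 UMIs per cell, 8.07% mitochondrial UMIs) entered no comparison between clusters and is part of the sums over all cDC1s.

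NF-κB transcription factors are dimers of subunits that share a DNA-binding domain. In unstimulated cells IκB proteins hold most dimers in the cytoplasm. In the canonical pathway, signals from Toll-like, cytokine and TNF-family receptors activate the IκB kinase complex, IκB proteins are degraded, and dimers of RelA or c-Rel with p50 enter the nucleus. In the non-canonical pathway, CD40 and related receptors stabilise the kinase NIK, p100 is processed to p52, and dimers of RelB with p52 are released. Many NF-κB target genes encode its own inhibitors, and in dendritic cells the factor is known for its part in maturation and cytokine production.

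The labels were checked on the targeted genes and on cDC1 markers. *Clec9a* was counted at 168 CPM (counts per 10⁶ UMIs of the sum; 95% Poisson interval 164 to 173) in WT cDC1s and at 168 CPM (163 to 174) in sGSN-/- cDC1s. All cDC1s of the library labelled sGSN-/-Clec9a-/- together held 2 UMIs of the gene, which is 0.0931 CPM (0.0113 to 0.336), as the label says. *Gsn* was at 152, 169 and 167 CPM in the WT, sGSN-/- and sGSN-/-Clec9a-/- libraries. Only the secreted form of gelsolin is named as deleted, and counts per gene do not separate the forms, so these values leave the sGSN-/- label unchecked. All 6 cDC1 markers (*Xcr1*, *Clec9a*, *Irf8*, *Batf3*, *Cadm1* and *Wdfy4*) were detected in each activated cluster, with *Irf8* the most abundant. Their summed level, which includes the deleted *Clec9a*, was 2599, 2560.4 and 2436 CPM in resting cDC1s, in the order WT, sGSN-/- and sGSN-/-Clec9a-/-. It was 2385 ± 143 CPM in cluster 7 and 2573 ± 175 CPM in cluster 9 (mean ± SD, n = 3 libraries), both overlapping resting cDC1s. It lay below every resting library in cluster 10 (2084, 2404 and 2112 CPM), in early cDC1s (1727, 1886 and 1699.8 CPM) and, by most, in cluster 8 (1309, 1290.1 and 1314 CPM). The intervals cover counting error only.

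UMIs of each gene were summed per library and group, and the 3 libraries served as replicates, so that the SD over libraries also holds any difference between genotypes. Where 3 values of a gene are given, they are CPM in the WT, sGSN-/- and sGSN-/-Clec9a-/- library in this order, and ± is the SD over the 3 libraries. The test between groups was the quasi-likelihood test of edgeR, 3 sums against 3, and a gene is called at a Benjamini-Hochberg adjusted p below 0.05 over all genes tested. The authors had called the clusters on data made from these same counts, which hold the members. An adjusted p therefore says how alike the libraries are in a difference, and not that the cluster exists. All comparisons with resting cDC1s share the resting sums. Levels in CPM depend on the gene, and were ranked between genes only to name the most abundant gene of a marker list.

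In the GENCODE M21 annotation of GRCm38 the subunit genes lie on 4 chromosomes. *Rel* (ENSMUSG00000020275) is at chr11:23736847-23770970, minus strand, *Rela* (ENSMUSG00000024927) at chr19:5637483-5648130, plus strand, and *Relb* (ENSMUSG00000002983) at chr7:19606217-19629438, minus strand. *Nfkb1* (ENSMUSG00000028163) is at chr3:135584655-135691547, minus strand, and *Nfkb2* (ENSMUSG00000025225) at chr19:46304320-46312385, plus strand. Among the inhibitors, *Nfkbia* (ENSMUSG00000021025) is at chr12:55489410-55492647, minus strand, *Nfkbie* (ENSMUSG00000023947) at chr17:45555703-45563169, plus strand, and *Nfkbiz* (ENSMUSG00000035356) at chr16:55811375-55838899, minus strand. *Tnfaip3* (ENSMUSG00000019850) is at chr10:19000910-19015657, minus strand, and *Bcl3* (ENSMUSG00000053175) at chr7:19808462-19822770, minus strand. Exons of *Nfkb2* overlap *Psd* and *AC114539.1*, and exons of *Bcl3* overlap *Gm16175*, in each case on the opposite strand. The sources do not say whether the counting used the strand, so the counts of these members are uncertain to that extent.

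Activated cDC1s as a whole had higher levels of all 10 members, in CPM, than resting cDC1s. The 10 members together made up 2558, 2600.3 and 1993 CPM in activated cDC1s, against 873, 834 and 778 CPM in resting cDC1s. Each member was higher in 3 of 3 libraries, the library ranges of the 2 groups did not overlap for any of them, and all 10 were called higher. The share of all genes whose library ranges did not overlap was not computed, here or in the comparisons below. Over all 10576 genes tested, 15.8% were called higher and 8.81% lower. The median log2 fold change of the members was 1.40, against -0.02 over all genes tested. The calls over all genes were 1674 higher and 932 lower, and 1426 and 1479 when library size was used without TMM factors.

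Among the subunits, *Relb*, which encodes the DNA-binding partner of p52 in the non-canonical pathway, differed by the largest fold. It was counted at 154, 202 and 85.4 CPM in activated and at 24.9, 23.9 and 22.9 CPM in resting cDC1s (log2 fold change 2.71, standard error 0.22, edgeR quasi-likelihood test, Benjamini-Hochberg adjusted p = 3.6e-06). The spread of *Relb* between activated cells of the 3 libraries was wide, with the sGSN-/- library highest and the sGSN-/-Clec9a-/- library lowest. The libraries also differed in the share of cluster 8, where *Relb* was highest. It held 84 of 326 (WT), 114 of 315 (sGSN-/-) and 57 of 274 activated cells (sGSN-/-Clec9a-/-). The part of this share in the spread of *Relb* was not tested. *Nfkb2*, the gene of p100 and p52, was at 109, 114 and 84.1 CPM in activated and at 39.2, 42.7 and 40.1 CPM in resting cDC1s (log2 fold change 1.42, standard error 0.10, edgeR quasi-likelihood test, Benjamini-Hochberg adjusted p = 1.13e-06). *Nfkb1*, the gene of p105 and p50, was at 184, 192 and 146 CPM against 77.5, 69.9 and 72.9 CPM (log2 fold change 1.33, standard error 0.10, edgeR quasi-likelihood test, Benjamini-Hochberg adjusted p = 1.3e-06). *Rel*, the gene of c-Rel, a subunit found mainly in blood and immune cells, was at 723, 780.3 and 544 CPM against 373, 365 and 323 CPM. *Rela*, the gene of p65, had the smallest difference of the subunits, with 50.5, 53.0 and 51.2 CPM against 39.0, 38.2 and 38.0 CPM. Their log2 fold changes were 1.03 (standard error 0.11, adjusted p = 2.64e-05) for *Rel* and 0.51 (standard error 0.08, adjusted p = 0.00046) for *Rela* in the same edgeR test. The folds of the mean ran from 1.34 (*Rela*) to 6.16 (*Relb*). They are those of the pooled clusters. In cluster 7, which held 422 of the 915 activated cells, no subunit was called. *Rela* was lower there in CPM, which carry no TMM factors, than in resting cDC1s in 3 of 3 libraries. Its fitted log2 fold change in cluster 7 turned direction, to 0.038, without the sGSN-/- library.

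Among the inhibitors, *Nfkbiz* and *Nfkbia* differed most. *Nfkbia* encodes IκBα, the inhibitor that is degraded on signalling and made again from an NF-κB target gene. It was at 953, 898 and 705 CPM in activated and at 190.3, 177 and 162 CPM in resting cDC1s (log2 fold change 2.35, standard error 0.10, edgeR quasi-likelihood test, Benjamini-Hochberg adjusted p = 2.06e-08). *Nfkbiz*, the gene of the nuclear protein IκBζ, was at 121, 98.4 and 118 CPM against 21.2, 18.9 and 20.6 CPM (log2 fold change 2.56, standard error 0.10, edgeR quasi-likelihood test, Benjamini-Hochberg adjusted p = 1.04e-08). The values of both genes in the 2 groups lay far apart compared with the spread between libraries. *Tnfaip3*, which encodes a ubiquitin-editing enzyme that restrains signalling to the IκB kinase complex, was at 144, 121 and 148 CPM against 47.6, 40.1 and 36.3 CPM. *Nfkbie*, the gene of IκBε, was at 83.7, 107 and 78.3 CPM against 36.6, 35.7 and 37.4 CPM. *Bcl3*, the gene of a nuclear IκB protein that binds p50 and p52, was at 36.0, 35.3 and 33.0 CPM against 23.9, 22.4 and 25.3 CPM, the smallest difference among the inhibitors. Their log2 fold changes were 1.81 (standard error 0.11, adjusted p = 3.03e-07), 1.38 (standard error 0.11, adjusted p = 2.56e-06) and 0.63 (standard error 0.10, adjusted p = 0.000517), respectively, in the same edgeR test.

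**Figure D1:**
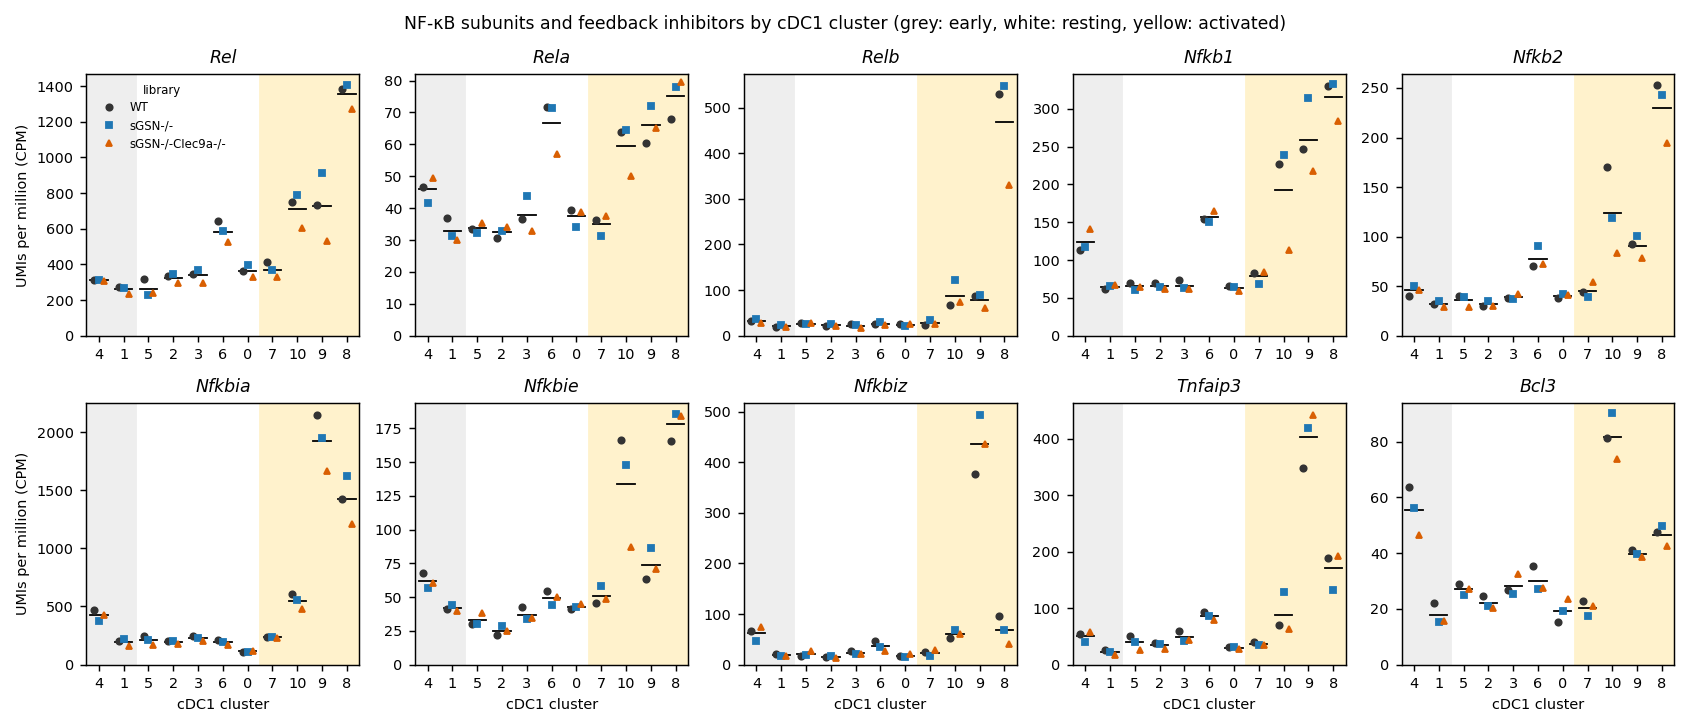
Levels of the 10 members in CPM (vertical axes, linear from 0, 1 panel per gene) in each cluster of cDC1s (horizontal axis; early clusters in grey, resting in white, activated in yellow), with 1 symbol per library (circle WT, square sGSN-/-, triangle sGSN-/-Clec9a-/-) and a line at the mean. The subunits and *Nfkbie* peaked in cluster 8, *Nfkbia*, *Nfkbiz* and *Tnfaip3* in cluster 9 and *Bcl3* in cluster 10, while cluster 7 lay close to the resting clusters for most members.

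The activated clusters differed widely in their levels of the members. Summed over the 10 members, cluster 8 stood at 4327 ± 441 CPM, cluster 9 at 4091 ± 446 CPM, cluster 10 at 2091 ± 349 CPM and cluster 7 at 922 ± 45.8 CPM. Resting cDC1s stood at 828 ± 47.6 CPM and early cDC1s at 891 ± 43.2 CPM. The sums of clusters 8 and 9 overlapped between libraries, and the lowest library of cluster 7 was above the highest of resting cDC1s. Within resting cDC1s the sum was highest in cluster 6, at 1302 ± 107 CPM. This cluster is also the shallowest of those grouped as resting, with a median of 8530.5 UMIs per cell. Within early cDC1s it was highest in cluster 4, at 1214 ± 68.7 CPM, the cluster in which the largest share of barcodes, 9.96%, had a doublet score in the top 6% of their library. The part of depth and of doublets in these levels was not tested beyond thinning the cells and leaving doublets out.

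The subunit genes were ordered by their mean level over clusters 0 to 10. *Rel* was highest in cluster 8 (1353 ± 72.5 CPM), whose library range did not overlap that of the next. Clusters 9 (725 ± 192 CPM), 10 (713 ± 97.6 CPM) and 6 (584 ± 60.0 CPM) followed with overlapping ranges, and the other 7 clusters lay between 259 (cluster 1) and 369.9 CPM (cluster 7). *Relb* was highest in cluster 8, at 469 ± 121 CPM, above all other clusters in every library. Clusters 10 (87.8 ± 30.2 CPM) and 9 (79.4 ± 16.3 CPM) overlapped each other and lay above the remaining clusters, whose means were between 21.1 (cluster 1) and 32.5 CPM (cluster 4). The order of *Nfkb2* was similar, with cluster 8 (230.1 ± 31.5 CPM) apart from clusters 10 (124 ± 43.4 CPM), 9 (90.5 ± 11.3 CPM) and 6 (77.5 ± 11.2 CPM), which overlapped in turn. For *Nfkb1* no gap separated clusters 8 (315 ± 27.7 CPM), 9 (259 ± 49.2 CPM), 10 (193 ± 68.8 CPM) and 6 (157 ± 7.64 CPM), each overlapping the next. Cluster 4 came next at 124 ± 14.8 CPM, and the others lay between 63.0 and 78.6 CPM. *Rela* varied least among the subunits, from 32.5 ± 1.79 CPM in cluster 2 to 75.1 ± 6.36 CPM in cluster 8, with clusters 8, 6, 9 and 10 overlapping in turn.

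The inhibitor genes had other orders. *Nfkbia* was highest in cluster 9 (1919 ± 245 CPM), then in clusters 8 (1419.7 ± 206 CPM), 10 (549.6 ± 64.1 CPM) and 4 (424 ± 48.0 CPM), with no overlap between neighbours, and was lowest in cluster 0 (114 ± 4.93 CPM). *Nfkbiz* was also highest in cluster 9 (436 ± 58.7 CPM). Far below it, and overlapping in turn, came clusters 8 (68.1 ± 27.6 CPM), 4 (62.6 ± 13.9 CPM) and 10 (60.4 ± 7.26 CPM), and the other clusters lay between 15.5 and 35.7 CPM. *Tnfaip3* followed the same order at the top, with 403 ± 49.6 CPM in cluster 9 and 171 ± 34.1 CPM in cluster 8, both apart from their neighbours. Clusters 10 (87.8 ± 35.8 CPM) and 6 (85.7 ± 7.26 CPM) overlapped, and cluster 1 was lowest (21.9 CPM). *Nfkbie* was highest in clusters 8 (179 ± 11.2 CPM) and 10 (134 ± 41.6 CPM), which overlapped, and lowest in cluster 2 (25.2 CPM). *Bcl3* was the one member highest in cluster 10 (81.8 ± 8.30 CPM), above clusters 4 (55.4 ± 8.65 CPM) and 8 (46.6 ± 3.53 CPM), which overlapped, and cluster 9 (39.8 ± 1.41 CPM). Of the inhibitors, *Nfkbie* was thus the one with its highest mean in cluster 8, where all 5 subunit genes had theirs.

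**Figure D2:**
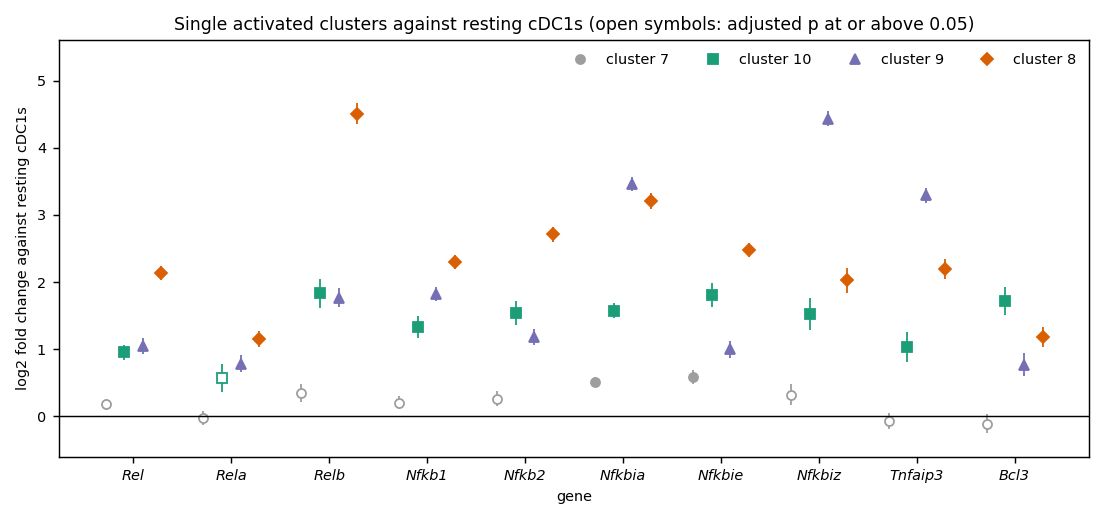
Log2 fold changes of the members (vertical axis, points with standard errors) in clusters 7, 10, 9 and 8, each against resting cDC1s, from sums of 3 libraries per group; open symbols mark an adjusted p of 0.05 or more in edgeR's quasi-likelihood test. Cluster 8 has its largest value for *Relb* and cluster 9 for *Nfkbiz*, while 2 members were called in cluster 7.

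Cluster 8, described by the authors by *Ccr7* and *Il12b*, had higher levels of all 10 members, in CPM, than resting cDC1s. Each was higher in 3 of 3 libraries, with no overlap between the library ranges. *Relb* led, with 529.9, 547 and 329.9 CPM against 24.9, 23.9 and 22.9 CPM (log2 fold change 4.51, standard error 0.16, edgeR quasi-likelihood test, Benjamini-Hochberg adjusted p = 8.94e-12). *Rel* reached 1381, 1408 and 1271 CPM (log2 fold change 2.13, standard error 0.10, edgeR quasi-likelihood test, Benjamini-Hochberg adjusted p = 2.77e-10), *Nfkb2* 253, 243 and 194 CPM and *Nfkb1* 330.4, 332 and 283 CPM. Of the subunits, *Rela* differed least, with 67.8, 77.9 and 79.6 CPM (log2 fold change 1.15, standard error 0.12, edgeR quasi-likelihood test, Benjamini-Hochberg adjusted p = 1.86e-06). The inhibitors *Nfkbia* and *Nfkbie* reached 1425, 1623 and 1211 CPM and 166, 186 and 184 CPM, with log2 fold changes of 3.21 and 2.48. *Nfkbiz* was uneven between the libraries, at 95.9, 67.7 and 40.8 CPM, and still above every resting library. *Tnfaip3* (189, 131 and 192 CPM) and *Bcl3* (47.5, 49.6 and 42.7 CPM) were higher by log2 fold changes of 2.20 and 1.18. All 10 members were called higher, where 22.8% of 10407 genes tested were called higher and 20.2% lower. Without TMM factors the calls over all genes were 1902 higher and 3013 lower, in place of 2376 and 2102, and the median log2 fold change of all genes was -0.25 in place of -0.07. All 10 members were called higher under that scaling too.

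Cluster 9 also had a higher level of each member, in CPM, than resting cDC1s in 3 of 3 libraries, without overlap. Here 3 of the inhibitor and feedback genes led. *Nfkbiz* was at 376, 494 and 437 CPM against 21.2, 18.9 and 20.6 CPM (log2 fold change 4.43, standard error 0.11, edgeR quasi-likelihood test, Benjamini-Hochberg adjusted p = 4.31e-16). *Nfkbia* was at 2149, 1945 and 1662 CPM (log2 fold change 3.47, standard error 0.10, edgeR quasi-likelihood test, Benjamini-Hochberg adjusted p = 1.21e-14) and *Tnfaip3* at 348, 420.0 and 443 CPM (log2 fold change 3.29, standard error 0.11, edgeR quasi-likelihood test, Benjamini-Hochberg adjusted p = 1.13e-13). These 3 genes had the largest differences of the members in this cluster, and *Nfkbiz* and *Tnfaip3* are among the genes by which the authors describe it. Of the subunits, *Nfkb1* (247, 314 and 218 CPM) and *Relb* (87.4, 90.1 and 60.7 CPM) had log2 fold changes of 1.82 and 1.76. *Nfkb2* (92.2, 101 and 78.4 CPM), *Rel* (734, 912 and 528 CPM) and *Rela* (60.5, 72.1 and 65.1 CPM) followed with 1.18, 1.05 and 0.78. *Nfkbie* (63.4, 86.5 and 71.0 CPM against 36.6, 35.7 and 37.4 CPM) was higher too, and *Bcl3* (41.3, 39.7 and 38.5 CPM) was higher by 0.77 on the log2 scale. All 10 were called higher, where 4.04% of 10224 genes were called higher and 1.33% lower. The call of *Bcl3* (adjusted p = 0.00661) was lost without the WT library (0.72, adjusted p = 0.145, edgeR), and with cells thinned to 3900 UMIs the calls of *Bcl3*, *Nfkbie* and *Rela* were lost, with log2 fold changes of 0.79, 0.82 and, in place of 0.78, 0.28.

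Cluster 10 was the smallest activated cluster and the one the authors describe by *Cxcl9*. It had higher levels of all 10 members, in CPM, than resting cDC1s in 3 of 3 libraries, and 9 were called higher. *Relb* (67.3, 122 and 73.6 CPM; log2 fold change 1.83, standard error 0.22, edgeR quasi-likelihood test, Benjamini-Hochberg adjusted p = 2.34e-06) and *Nfkbie* (167, 148 and 87.0 CPM; log2 fold change 1.81, standard error 0.18, edgeR quasi-likelihood test, Benjamini-Hochberg adjusted p = 1.34e-07) had the largest log2 fold changes. *Bcl3* was at 81.5, 90.2 and 73.6 CPM against 23.9, 22.4 and 25.3 CPM (log2 fold change 1.72, standard error 0.21, edgeR quasi-likelihood test, Benjamini-Hochberg adjusted p = 3.13e-06). The difference of *Bcl3* was larger than the spread between libraries of either group. *Nfkbia* (609, 557 and 482 CPM), *Nfkb2* (170.1, 119 and 83.7 CPM) and *Nfkbiz* (53.2, 67.7 and 60.2 CPM) had log2 fold changes of 1.58, 1.54 and 1.52. *Nfkb1* (227, 238 and 114 CPM) and *Rel* (751, 786 and 602 CPM) had 1.33 and 0.95. The value of *Nfkb1* in the sGSN-/-Clec9a-/- library lay well below those of the others, though above the resting libraries. *Rela* (63.8, 64.4 and 50.2 CPM) was not called (log2 fold change 0.57, standard error 0.20, adjusted p = 0.0687, edgeR), and was called with DESeq2 (0.61, adjusted p = 0.0409). *Tnfaip3* (70.9, 129 and 63.6 CPM) was called (log2 fold change 1.03, standard error 0.23, edgeR quasi-likelihood test, Benjamini-Hochberg adjusted p = 0.00321) and the call was lost without the sGSN-/- library, where the log2 fold change was 0.58 (adjusted p = 0.276). Of 10061 genes tested, 6.31% were called higher and 6.08% lower. These calls over all genes, 635 higher and 612 lower, became 1004 and 480 with DESeq2.

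Cluster 7, described by the authors by interferon-stimulated genes, was close to resting cDC1s for most members. *Nfkbia* (235, 237 and 225 CPM against 190.3, 177 and 162 CPM; log2 fold change 0.51, standard error 0.07, edgeR quasi-likelihood test, Benjamini-Hochberg adjusted p = 7.75e-05) and *Nfkbie* (45.6, 58.3 and 48.4 CPM against 36.6, 35.7 and 37.4 CPM; log2 fold change 0.58, standard error 0.11, edgeR quasi-likelihood test, Benjamini-Hochberg adjusted p = 0.000717) were called higher, each in 3 of 3 libraries. None of the subunits was called in this fit. *Rel* (416, 367 and 327 CPM) was higher in 3 of 3 libraries by a log2 fold change of 0.18 (adjusted p = 0.141, edgeR), and was called with the library as a block (0.17, adjusted p = 0.0117). *Relb* (24.6, 34.6 and 25.1 CPM) and *Nfkb2* (43.9, 38.8 and 54.1 CPM) were each above resting in 2 of 3 libraries, with overlapping ranges (log2 fold changes 0.34 and 0.26, adjusted p = 0.0865 and 0.132, edgeR). The log2 fold changes of the other 5 members lay between -0.11 (*Bcl3*) and 0.32 (*Nfkbiz*). Of these, *Rela*, *Tnfaip3* and *Bcl3* were lower in CPM than resting in 3 of 3 libraries, *Rela* without overlap, and were not called. These CPM carry no TMM factors. The fitted log2 fold change of *Rela* turned direction, to 0.038, without the sGSN-/- library. In the new clusters described below, those of *Rela* (0.0055), *Tnfaip3* (0.116) and *Bcl3* (0.371) turned direction. In all, 2 of 10 members were called higher and 0 lower, where 12.6% of 10269 genes were called higher and 6.56% lower. The calls over all genes, 1293 higher and 674 lower, became 947 and 1246 without TMM factors, with a median log2 fold change of all genes of -0.14 in place of -0.03. Both calls of members held under that scaling. When the cells were clustered anew without 116 NF-κB genes, most of cluster 10 (69 of 76 cells) fell into the new cluster that held most of cluster 7. Of its 560 cells, 376 came from cluster 7, 62 from resting and 43 from early clusters. Against resting cDC1s 8 members were then called higher, where 1506 of 10365 genes tested were called higher and 1002 lower. Among these 8 members were *Relb* (log2 fold change 0.69, adjusted p = 0.00137, edgeR quasi-likelihood test), *Rel* (0.25), *Nfkb1* (0.36), *Nfkb2* (0.39), *Nfkbiz* (0.58) and *Bcl3* (0.37). The part of the cells from outside cluster 7 in these calls was not tested.

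Since clusters 8 and 9 were the richest in members, they were compared directly. The subunits *Relb* (529.9, 547 and 329.9 CPM in cluster 8 against 87.4, 90.1 and 60.7 CPM in cluster 9; log2 fold change 2.74, standard error 0.21, edgeR quasi-likelihood test, Benjamini-Hochberg adjusted p = 1.09e-07), *Nfkb2* (log2 fold change 1.53, standard error 0.16, edgeR quasi-likelihood test, Benjamini-Hochberg adjusted p = 3e-06) and *Rel* (log2 fold change 1.08, standard error 0.16, edgeR quasi-likelihood test, Benjamini-Hochberg adjusted p = 7.81e-05) were higher in cluster 8 in 3 of 3 libraries. So was *Nfkbie* (log2 fold change 1.46, standard error 0.17, edgeR quasi-likelihood test, Benjamini-Hochberg adjusted p = 6.41e-06). In the other direction, *Nfkbiz* was lower in cluster 8 (95.9, 67.7 and 40.8 CPM against 376, 494 and 437 CPM; log2 fold change -2.44, standard error 0.21, edgeR quasi-likelihood test, Benjamini-Hochberg adjusted p = 3.79e-07), and so was *Tnfaip3* (189, 131 and 192 CPM against 348, 420.0 and 443 CPM; log2 fold change -1.09, standard error 0.17, edgeR quasi-likelihood test, Benjamini-Hochberg adjusted p = 0.000109), both in 3 of 3 libraries. The subunits *Relb*, *Nfkb2* and *Rel* and these 2 feedback genes were thus unequal between the clusters in opposite directions. *Nfkb1* was at 330.4, 332 and 283 CPM against 247, 314 and 218 CPM, higher in 3 of 3 libraries by 0.46 on the log2 scale (adjusted p = 0.0243, edgeR), and this call was lost with DESeq2 (adjusted p = 0.0584), without TMM factors (0.153), without the WT library (0.197) and with thinned cells (0.268). The log2 fold changes of *Nfkb1* in these alternatives were, in this order, 0.48, 0.29, 0.40 and 0.29. *Nfkbia*, *Bcl3* and *Rela* were not called, with log2 fold changes of -0.26, 0.40 and 0.36. In all, 5 members were called higher and 2 lower in cluster 8, where 20.9% of 6144 genes were called higher and 17.3% lower. Without TMM factors *Nfkbia* was called lower (log2 fold change -0.43, adjusted p = 0.0224, edgeR), the median of all genes was -0.17 in place of 0.00, and the calls over all genes were 1019 higher and 1487 lower in place of 1286 and 1062.

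Clusters 8 and 10 were compared in the same way. *Relb* (529.9, 547 and 329.9 CPM in cluster 8 against 67.3, 122 and 73.6 CPM in cluster 10; log2 fold change 2.58, standard error 0.26, edgeR quasi-likelihood test, Benjamini-Hochberg adjusted p = 6.39e-06), *Nfkbia* (1425, 1623 and 1211 CPM against 609, 557 and 482 CPM; log2 fold change 1.54, standard error 0.16, edgeR quasi-likelihood test, Benjamini-Hochberg adjusted p = 8.97e-06) and *Rel* (log2 fold change 1.10, standard error 0.15, edgeR quasi-likelihood test, Benjamini-Hochberg adjusted p = 8.71e-05) were higher in cluster 8 in 3 of 3 libraries. *Nfkb2* (log2 fold change 1.08, standard error 0.22, edgeR quasi-likelihood test, Benjamini-Hochberg adjusted p = 0.0015) and *Nfkb1* (log2 fold change 0.89, standard error 0.22, edgeR quasi-likelihood test, Benjamini-Hochberg adjusted p = 0.00566) were also higher in 3 of 3 libraries. The subunit genes other than *Rela* (log2 fold change 0.50, adjusted p = 0.119, edgeR) were thus called in this comparison. *Tnfaip3* was higher in 3 of 3 libraries (log2 fold change 1.10, standard error 0.27, edgeR quasi-likelihood test, Benjamini-Hochberg adjusted p = 0.00521), with a log2 fold change of 0.89 (adjusted p = 0.0873) without the WT library and 1.69 without the sGSN-/- library. The remaining calls were weak. *Nfkbie* was higher in 2 of 3 libraries (log2 fold change 0.59, standard error 0.21, edgeR quasi-likelihood test, Benjamini-Hochberg adjusted p = 0.0413), and the call was lost with the library as a block (adjusted p = 0.0537), with DESeq2, without TMM factors and without any 1 of the libraries, with log2 fold changes from 0.36 (without the sGSN-/-Clec9a-/- library) to 0.82 (without the WT library). *Bcl3* was lower in cluster 8 in 3 of 3 libraries (47.5, 49.6 and 42.7 CPM against 81.5, 90.2 and 73.6 CPM; log2 fold change -0.63, standard error 0.23, edgeR quasi-likelihood test, Benjamini-Hochberg adjusted p = 0.045), and the call was lost with the library as a block (adjusted p = 0.0669), with DESeq2 (0.329), without a filter on low counts, with thinned cells, without doublets and without any 1 of the libraries. In these alternatives the log2 fold change of *Bcl3* ran from -0.77 (thinned cells) to -0.51 (no filter on low counts). *Nfkbiz* overlapped between the clusters (95.9, 67.7 and 40.8 CPM against 53.2, 67.7 and 60.2 CPM). This left 7 members called higher and 1 lower, where 18.8% of 4229 genes were called higher and 16.2% lower. Without TMM factors the calls over all genes were 624 higher and 972 lower in place of 796 and 683, the median of all genes was -0.16 in place of 0.01, and 6 members were called higher and 1 lower.

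Early cDC1s, which the authors placed near the pre-cDCs, differed from resting cDC1s in a mixed way. Of the subunits, *Rel* was lower (289, 284 and 262 CPM against 373, 365 and 323 CPM; log2 fold change -0.34, standard error 0.06, edgeR quasi-likelihood test, Benjamini-Hochberg adjusted p = 0.000482) in 3 of 3 libraries. *Nfkb1* was higher in 3 of 3 libraries (81.5, 83.7 and 94.2 CPM against 77.5, 69.9 and 72.9 CPM; log2 fold change 0.24, standard error 0.08, edgeR quasi-likelihood test, Benjamini-Hochberg adjusted p = 0.0331), and the call was lost without the sGSN-/- library (adjusted p = 0.146), without the sGSN-/-Clec9a-/- library (0.134), with DESeq2 (0.0588), with thinned cells and without doublets. *Rela*, *Relb* and *Nfkb2* were not called, at 37.6 ± 2.86, 25.2 ± 2.84 and 37.2 ± 3.10 CPM in early cDC1s. Of the inhibitors, *Nfkbia* (305, 276 and 258 CPM against 190.3, 177 and 162 CPM; log2 fold change 0.67, standard error 0.07, edgeR quasi-likelihood test, Benjamini-Hochberg adjusted p = 2.99e-06) and *Nfkbie* (log2 fold change 0.43, standard error 0.07, edgeR quasi-likelihood test, Benjamini-Hochberg adjusted p = 0.000316) were higher in 3 of 3 libraries. *Nfkbiz* was higher as well (37.7, 27.3 and 38.0 CPM against 21.2, 18.9 and 20.6 CPM; log2 fold change 0.77, standard error 0.12, edgeR quasi-likelihood test, Benjamini-Hochberg adjusted p = 0.000177), by 0.47 without doublets. *Bcl3* was higher (37.7, 29.4 and 27.0 CPM against 23.9, 22.4 and 25.3 CPM; log2 fold change 0.41, standard error 0.11, edgeR quasi-likelihood test, Benjamini-Hochberg adjusted p = 0.00856), by 0.25 (adjusted p = 0.164) without the WT library. *Tnfaip3* was lower (36.7, 28.7 and 32.2 CPM against 47.6, 40.1 and 36.3 CPM; log2 fold change -0.34, standard error 0.10, edgeR quasi-likelihood test, Benjamini-Hochberg adjusted p = 0.0174), with -0.53 without doublets and an adjusted p of 0.116 without the sGSN-/- library. Each of these 3 differences had its direction in 3 of 3 libraries of the pooled sums. The 2 early clusters, which were not tested apart, lay on opposite sides of the resting mean for 7 members, cluster 4 above it and cluster 1 (820 of 1332 early cells) below it. Cluster 4 first, *Nfkb1* was at 114, 118 and 141 CPM and 62.1, 65.5 and 67.1 CPM, *Nfkbiz* at 66.4, 47.1 and 74.2 CPM and 20.5, 16.7 and 17.0 CPM, *Bcl3* at 63.7, 56.1 and 46.5 CPM and 22.1, 15.1 and 15.7 CPM, and *Tnfaip3* at 53.6, 40.7 and 58.4 CPM and 26.5, 22.3 and 17.0 CPM. *Rela*, *Relb* and *Nfkb2* were the other 3. *Rel* was below the resting mean in both clusters, and *Nfkbia* and *Nfkbie* were above it in both. In all, 5 members were called higher and 2 lower, where 19.1% of 10696 genes were called higher and 19.4% lower. Of the 5 inhibitors 4 were called higher and 1, *Tnfaip3*, lower.

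*Relb* and *Nfkb2*, whose products form the non-canonical dimer, were also read as a share of all UMIs of the 5 subunit genes, a quantity that does not depend on the scaling of the libraries. The share was 30.6, 30.3 and 24.3% in cluster 8 in the WT, sGSN-/- and sGSN-/-Clec9a-/- libraries, and 11.6, 12.3 and 12.7% in resting cDC1s. Cluster 8 was thus above resting cDC1s in every library, with a lower value in the sGSN-/-Clec9a-/- library than in the others. The share was 17.9 ± 0.794% in cluster 10, 14.1 ± 1.07% in cluster 9, 13.3 ± 1.87% in cluster 7 and 13.4 ± 1.06% in early cDC1s. Of these groups cluster 10 lay above the ranges of the others, cluster 9 and early cDC1s lay just above the range of resting cDC1s, and cluster 7 overlapped it. The resting range is that of the pooled resting clusters. Resting cluster 5 alone was at 13.9, 16.7 and 14.2%, and overlapped cluster 9 and early cDC1s. With all cells thinned to 3900 UMIs the share was 29.2% in cluster 8, 15.2% in cluster 10 and 12.2% in cluster 9. After thinning the range of cluster 10 overlapped those of clusters 9 and 7 and lay above that of resting cDC1s, and cluster 9 overlapped resting cDC1s. No test was run on these shares.

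**Figure D3:**
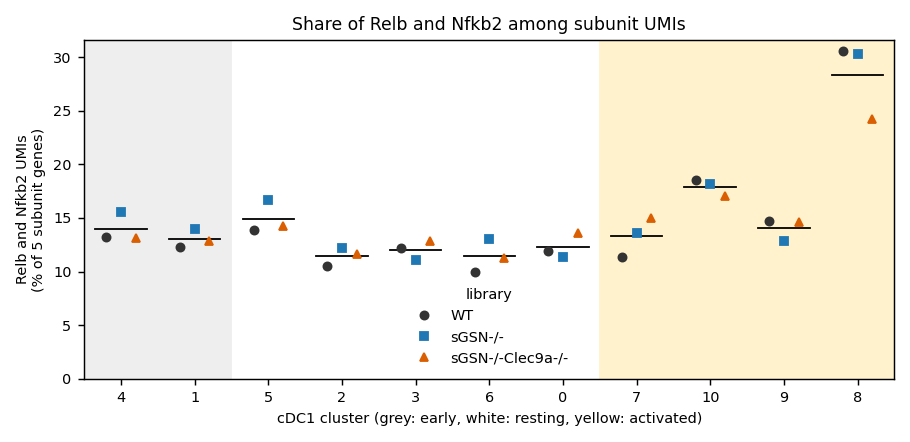
Share of *Relb* and *Nfkb2* among the UMIs of the 5 subunit genes (vertical axis, %) in each cluster of cDC1s (horizontal axis), with 1 symbol per library and a line at the mean. Cluster 8 lies highest, between 24.3 and 30.6%.

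Detection in single cells was compared after each cell had been thinned to 3900 UMIs, which left out 288 shallower cDC1s, 57 of them in cluster 8. Of the 10 members, 5.32 ± 0.194 were detected per cell in cluster 8, 4.78 ± 0.308 in cluster 9, 4.22 ± 0.613 in cluster 10, 2.16 ± 0.0631 in cluster 7 and 2.06 ± 0.106 in resting cDC1s. Before thinning the means were 6.78, 7.43, 6.44, 4.48 and 4.22. Every thinned cell of clusters 8 (198 cells) and 9 (158 cells) held at least 1 member, and 329 of 3394 resting cells held none. *Rel* was found in 97.5 ± 0.311% of thinned cells of cluster 8 and in 65.0 ± 4.40% of resting cells (97.3% and 91.1% before thinning), so most resting cDC1s already held *Rel* UMIs. *Relb* was found in 75.5 ± 8.83% of cells of cluster 8, 25.3 ± 5.39% of cluster 10, 18.6 ± 6.48% of cluster 9 and 7.91 ± 1.18% of resting cells (86.5%, 52.3%, 57.4% and 24.3% before thinning). *Nfkbia* was found in 98.7 ± 2.18% of cells of cluster 9 and 39.5 ± 0.896% of resting cells (100% and 66.8% before thinning). For these genes the higher sums went with a higher share of cells. *Nfkbiz* was found in 69.6 ± 3.57% of cells of cluster 9, 20.8 ± 2.40% of cluster 8 and 6.48 ± 1.08% of resting cells (91.1%, 34.3% and 19.7% before thinning), and *Bcl3* in 36.3 ± 8.04% of cluster 10 and 9.01 ± 1.29% of resting cells (54.3% and 24.5% before thinning). As a measure of background detection, the NK cell genes *Ncr1* and *Gzma* were found in 0.465 ± 0.354% and 4.67 ± 2.60% of all thinned cDC1s (1.56% and 13.4% before thinning).

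Genotypes were compared on the members summed over all cDC1s, with 1 library per genotype and no test. *Relb* was at 43.1, 57.0 and 32.4 CPM, a log2 ratio of 0.40 (0.30 to 0.51) for sGSN-/- over WT and -0.82 (-0.95 to -0.68) for sGSN-/-Clec9a-/- over sGSN-/-, with 95% intervals for counting error only. The second was the one ratio of a member past 1.5-fold, where 1.29% of 4738 genes at 20 CPM or more were past it in either direction. For sGSN-/- over WT it was 0 of 10 members and 0.647% of 4794 genes, and for sGSN-/-Clec9a-/- over WT 0 of 10 and 1.1% of 4718 genes. The share of cluster 8 among cDC1s also differed between the libraries, with 84 of 2316, 114 of 1712 and 57 of 1778 cells. With the clusters weighted equally the log2 ratios of *Relb* were 0.14 and -0.59. *Rel* and *Nfkbia* were lower in the sGSN-/-Clec9a-/- than in the sGSN-/- library by log2 ratios of -0.29 (-0.34 to -0.25) and -0.32 (-0.37 to -0.27), and *Nfkb2* by -0.26 (-0.38 to -0.14). The ratios of *Rela* (-0.01 (-0.14 to 0.13)), *Tnfaip3* (0.01 (-0.11 to 0.13)) and *Bcl3* (0.02 (-0.14 to 0.19)) had intervals that included 0. The median absolute log2 ratio of the members was 0.12 for sGSN-/- over WT, 0.16 for sGSN-/-Clec9a-/- over sGSN-/- and 0.08 for sGSN-/-Clec9a-/- over WT, against 0.08, 0.10 and 0.10 over all genes at 20 CPM or more. With the clusters weighted equally these medians were 0.04, 0.19 and 0.17, against 0.08, 0.10 and 0.12 over all genes. For both ratios over WT, the members then lay on the other side of all genes.

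The other genes of the pathway were read from fixed lists, beside the members. The shares of all genes tested that were called higher and lower, for reading the counts below, were 15.8% and 8.81% for activated cDC1s, 22.8% and 20.2% for cluster 8, and 4.04% and 1.33% for cluster 9. Among 6 other NF-κB proteins and IκB family genes, 2 were called higher and 0 lower in activated against resting cDC1s, *Nfkbib*, the gene of IκBβ (1.29, standard error 0.12, adjusted p = 8.7e-06, edgeR), and *Nfkbid* (0.72). *Nfkbib* was highest in cluster 8 (300.0 ± 61.3 CPM against 58.5 ± 1.98 CPM in resting cDC1s) and *Nfkbid* in cluster 9 (196 ± 21.3 CPM against 61.1 CPM). Both genes were called higher in clusters 8 and 9, and in cluster 8 *Nkrf* was called lower, at 0.585 ± 0.515 against 3.76 ± 0.479 CPM, a call lost with DESeq2 and without the WT or the sGSN-/- library (log2 fold changes -2.22, -2.46 and -2.36, in place of -2.21). With thinned cells *Nkrf* did not enter the test. Of 31 kinases and adaptors upstream, 11 were called higher and 0 lower in activated cDC1s, 17 and 1 in cluster 8, and 5 of 30 and 0 in cluster 9. *Traf1*, a TNF receptor adaptor and known NF-κB target, led in all 3, with 88.0 ± 3.28 CPM in resting cDC1s, 287 ± 44.0 in cluster 9 and 919 ± 60.5 in cluster 8. *Map3k14*, the gene of the non-canonical kinase NIK, was at 44.9 ± 4.59 CPM in resting cDC1s and rose to 290.4 ± 32.8 CPM in cluster 8 (log2 fold change 2.89, standard error 0.13, adjusted p = 1.05e-10, edgeR). The adaptor gene *Myd88* was called lower in cluster 8 (38.6 ± 3.53 against 126 ± 3.83 CPM; -1.52, standard error 0.13, adjusted p = 2.03e-07, edgeR). The kinase list therefore held genes of both directions in cluster 8. Without the WT library or with thinned cells its count of higher calls in cluster 8 was 13, with the library as a block 16, and without the sGSN-/- or the sGSN-/-Clec9a-/- library or with thinned cells its count in cluster 9 was 3. *Malt1* (3.10) in cluster 8 and *Map3k8* (1.51) and *Bcl10* (0.85) in cluster 9 were also among the leading log2 fold changes of the list.

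Of 16 negative regulators other than the members, 9 were called higher and 2 lower in activated cDC1s and in cluster 8, and 7 higher and 0 lower in cluster 9. *Tnip3*, *Tank* and *Birc2* led in cluster 8 (log2 fold changes 4.70, 3.51 and 3.38), and *Tnip3*, *Zc3h12a* and *Birc3* in cluster 9 (2.62, 2.24 and 2.12). *Tnfaip8l2* and *Tnip2* were lower in cluster 8 (-2.10 and -0.90). The count of lower calls was less steady. In activated cDC1s it was 1 without the WT or the sGSN-/-Clec9a-/- library or with new clusters made without NF-κB genes, where the call of *Tnfaip8l2* was lost, and 0 with thinned cells. In cluster 8 it was 4 without TMM factors or without a filter on low counts. More genes of this list were thus called higher than lower in both clusters. What each product does to signalling in these cells was not measured. Of 15 receptors that signal to NF-κB and passed the filter, out of 20, 5 were called higher and 2 lower in activated cDC1s, 6 and 4 in cluster 8, and 1 and 1 of 14 in cluster 9. *Cd40*, a receptor that signals through both pathways, had 7.26 ± 1.12 CPM in resting cDC1s, 58.1 ± 27.2 in cluster 9 and 243 ± 74.6 in cluster 8. *Tnfrsf4* was at 142 ± 45.0 CPM in cluster 8, at 0.318 ± 0.117 CPM in resting cDC1s and at 0 in every library of cluster 9, and *Tnfrsf9* at 44.1 ± 4.79 against 0.893 ± 0.519 CPM in cluster 8 and resting cDC1s. The Toll-like receptor genes *Tlr11* and *Tlr3* were lower in cluster 8, *Tlr3* at 24.9 ± 5.49 against 190.5 ± 10.7 CPM. In activated cDC1s *Tlr3* was lower too, a call lost without any 1 of the libraries, which left 1 lower call. The lower call of cluster 9 was lost without the WT library and with thinned cells, and 2 receptors were called higher there with DESeq2, with the library as a block or without a filter on low counts.

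Of 29 textbook target genes tested, 23 were called higher and 0 lower in activated cDC1s, 22 and 2 in cluster 8, and 16 and 2 of 27 in cluster 9. Their median log2 fold change was 1.93 in activated cDC1s, 2.44 in cluster 8 and 1.29 in cluster 9, against -0.02, -0.07 and -0.01 over all genes tested. The list holds *Ccr7* and *Il12b*, by which cluster 8 is known. In cluster 8 the leading targets were *Ccr7* (2001 ± 723 against 0.826 ± 0.349 CPM), *Ccl22* (1525 ± 545 against 2.79 ± 0.251 CPM) and *Il12b* (1856 ± 721 against 5.75 ± 0.878 CPM). In cluster 9 they were *Cxcl10* (215 ± 58.4 CPM, log2 fold change 5.05), *Il12b* (85.7 ± 67.9 CPM) and *Tnf* (164 ± 17.8 against 12.3 ± 3.19 CPM). The chemokine gene *Ccl4* was lower in both clusters (log2 fold changes -0.76 and -1.04). *Sod2* was the other target called lower in cluster 8 (log2 fold change -0.43, adjusted p = 0.033, edgeR), and *Ccl3* in cluster 9 (-1.66). The call of *Sod2* was lost without the WT or the sGSN-/- library, with thinned cells and with the library as a block (edgeR quasi-likelihood test, adjusted p = 0.0516).

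In the other comparisons the lists gave these counts. The shares of all genes tested that were called higher and lower were 12.6% and 6.56% (cluster 7), 6.31% and 6.08% (cluster 10), 20.9% and 17.3% (cluster 8 against cluster 9), 18.8% and 16.2% (cluster 8 against cluster 10), and 19.1% and 19.4% (early cDC1s). In cluster 7 against resting cDC1s, 1 of 6 other NF-κB and IκB genes, 5 of 30 kinases and adaptors, 1 of 16 negative regulators, 4 of 13 receptors and 16 of 28 targets were called higher, and 0, 1, 1, 1 and 1 lower. In cluster 10 the counts were 1 of 6, 6 of 30, 4 of 16, 2 of 15 and 18 of 28 higher, and 0, 0, 2, 2 and 1 lower. Most of the targets tested were thus called higher in both clusters. The target list holds *Cxcl10* and *Irf1*, which the authors name for cluster 10. They also count *Cxcl10* among interferon-stimulated genes, by which they describe cluster 7. The target counts are therefore not independent of how these clusters were named. In cluster 8 against cluster 9 they were 1 of 5, 9 of 25, 6 of 15, 5 of 11 and 17 of 25 higher, and 1, 1, 4, 2 and 5 lower. In cluster 8 against cluster 10 they were 2 of 3, 8 of 19, 7 of 15, 4 of 7 and 13 of 24 higher, and 0, 2, 1, 1 and 5 lower. In early cDC1s they were 0 of 6, 2 of 31, 3 of 16, 4 of 15 and 10 of 28 higher, and 1, 8, 5, 5 and 6 lower.

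Immediate early and dissociation genes, which can be induced while tissue is digested, were read beside the members. Their 18 genes were all detected, and summed to 27604, 21869 and 20157 CPM in cluster 9 (*Fos* most abundant), 8943, 7612 and 9424 CPM in cluster 8 (*Klf6*), 8852, 10169 and 11152 CPM in cluster 10 (*Atf3*) and 17750.1, 15121 and 15519 CPM in resting cDC1s (*Fos*). In cluster 9, 9 of 18 were called higher and 0 lower (6 and 0 without the WT or the sGSN-/-Clec9a-/- library, 14 and 0 with the library as a block), led by *Egr1* (1.65), *Dnajb1* (1.64) and *Ier2* (1.39), so 9 of these genes were higher where *Nfkbia*, *Nfkbiz* and *Tnfaip3* were highest. In cluster 8, 1 was called higher and 14 lower, with *Klf6* at 0.97 and *Egr1* at -2.72, so there the members were higher while most of these genes were lower. In activated cDC1s as a whole 2 were called higher and 0 lower (0 and 0 without the WT library, 1 and 7 with the clusters weighted equally), in cluster 7 none, in cluster 10 12 lower, in early cDC1s 16 lower, in cluster 8 against cluster 9 1 higher and 15 lower, and in cluster 8 against cluster 10 3 higher and 6 lower. The part of dissociation in the levels of the members was not tested.

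Markers of other cell types were low in most groups and uneven in some. The 8 monocyte or macrophage markers, all detected, summed to 693, 103 and 116 CPM in cluster 8, with *Apoe* the most abundant, against 369.8, 346 and 345 CPM in resting cDC1s. The WT library stood apart here. Without it the log2 fold change of *Relb* in cluster 8 was 4.45 and that of *Nfkbia* 3.26, in place of 4.51 and 3.21. The 5 cDC2 markers summed to 138, 506 and 100.4 CPM in cluster 10, with *Cd209a* the most abundant, and to 23.9, 21.5 and 22.0 CPM in resting cDC1s. Without the sGSN-/- library the log2 fold change of *Relb* in cluster 10 was 1.47 in place of 1.83, and that of *Bcl3* 1.57 in place of 1.72. The 6 NK cell markers summed to 97.9, 187 and 66.0 CPM in cluster 8 (*Klrd1*) and 48.1, 80.7 and 51.0 CPM in resting cDC1s. In cluster 10 they summed to 74.4, 126 and 171 CPM (*Klrd1*; *Eomes* at 0). In cluster 9 the cDC2 markers summed to 43.2, 36.0 and 45.9 CPM (*Mgl2*). In early cDC1s they summed to 156, 127 and 151 CPM (*Cd209a*), the NK cell markers to 169, 218 and 191 CPM (*Klrd1*) and the 5 pDC markers to 61.8, 63.4 and 59.8 CPM (*Tcf4*). The 3 proliferation markers summed to 56.6 ± 3.66 CPM in cluster 9 (*Mki67*), 52.6 ± 34.0 CPM in cluster 8 (*Mki67*) and 14.8 ± 2.23 CPM in resting cDC1s. In cluster 7 the pDC markers summed to 79.5 ± 8.73 CPM (*Tcf4*; *Cox6a2* and *Klk1* at 0), against 34.7, 37.0 and 33.1 CPM in resting cDC1s. In cluster 8 the 4 tumour fibroblast markers summed to 8.72, 3.94 and 15.5 CPM (*Sparc*), above the 1.94, 1.93 and 0.971 CPM of resting cDC1s (*Sparc*). The 6 T cell markers summed to 3.88, 11.8 and 3.88 CPM in cluster 8 (*Cd3g*) and 2.32, 3.12 and 1.94 CPM in resting cDC1s (*Cd3d*), and the 3 B cell markers to 2.91, 8.66 and 1.94 CPM (*Ms4a1*; *Cd79a* at 0) and 1.42, 0.892 and 0.897 CPM (*Cd79b*). The 4 neutrophil markers summed to 0.969, 0 and 0 CPM in cluster 8 (*Csf3r*; *S100a8*, *S100a9* and *Retnlg* at 0) and 0.0473, 0.0743 and 0.0747 CPM in resting cDC1s, and the pDC markers to 48.4, 23.6 and 31.0 CPM in cluster 8 (*Tcf4*). Markers of other cells in the lists given here were thus higher in some activated clusters and in early cDC1s. Their part in the levels of the members was not tested. The sums of pre-cDC markers are not reported, so this paragraph does not describe pre-cDCs, which were sorted into the same libraries.

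The members were also counted in the barcodes outside the cDC1 annotation, which were not tested. These barcodes hold the other sorted cells and those the authors excluded (dying, proliferating, T, NK and plasmacytoid cells). *Nfkbiz* was at 205 ± 18.1 CPM against 37.8 ± 2.17 CPM in cDC1s, *Nfkbia* at 782 ± 52.8 CPM against 307 ± 35.7 CPM, and *Tnfaip3* at 146 ± 10.8 CPM against 54.4 ± 3.96 CPM. *Nfkb1* was at 172 ± 4.25 CPM against 92.6 ± 3.42 CPM, *Nfkbie* at 75.0 ± 5.12 CPM against 48.0 ± 3.21 CPM and *Bcl3* at 44.4 ± 2.71 CPM against 27.3 ± 1.07 CPM. Their means were higher outside the cDC1s. The library ranges of *Rel* (374 ± 48.3 CPM against 389.7 ± 40.9 CPM), *Relb* (41.2 ± 6.02 CPM against 44.1 ± 12.4 CPM) and *Nfkb2* (55.9 ± 2.38 CPM against 49.8 ± 4.79 CPM) overlapped between the populations. *Rela* (45.6 ± 0.207 CPM against 40.3 ± 0.560 CPM) was higher outside the cDC1s by a small margin. No share over all genes was computed for this comparison.

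The levels of the members were correlated over the 33 sums of clusters 0 to 10 in 3 libraries, which share libraries and depth. Over the 45 pairs of members Pearson's r of log2(CPM + 1) ran from 0.565 (*Relb* and *Nfkbiz*) to 0.951 (*Rel* and *Nfkb2*), with a median of 0.786. Over all pairs of the 4684 other genes with a mean of at least 20 CPM the median was 0.0532, with quartiles of -0.227 and 0.320. Among 4694 genes with a mean of at least 20 CPM, those outside the members with the highest r were, for *Rel*, *Hivep1* (0.97), *Clic4* (0.94) and *Zc3h12c* (0.94), for *Relb*, *Traf1* (0.96), *H2-Q4* (0.95) and *Nfkbib* (0.94), and for *Nfkb2*, *Jak2* (0.94), *Hivep1* (0.94) and *Rap2a* (0.93). For *Nfkb1* they were *Birc3* (0.95), *Jak2* (0.91) and *Lilrb4a* (0.89), and for *Rela* *Birc3* (0.91), *Pim1* (0.91) and *Gpr132* (0.90). Among the subunits *Relb* was thus alone in having *Traf1* and *Nfkbib* at the top. For the inhibitors they were *Dusp2* (0.94), *Tnfsf9* (0.89) and *Tgif1* (0.89) for *Nfkbia*, *Dusp2* (0.90), *Zc3h12a* (0.90) and *Icam1* (0.86) for *Nfkbiz*, and *Sowahc* (0.94), *Icam1* (0.93) and *Birc3* (0.91) for *Tnfaip3*. For *Nfkbie* they were *Lilrb4a* (0.94), *Jak2* (0.93) and *Bhlhe40* (0.92), and for *Bcl3* *Irf1* (0.87), *Lilrb4a* (0.83) and *Lilr4b* (0.80). *Dusp2* and *Icam1* stood near the inhibitors highest in cluster 9, and *Irf1* (667 ± 75.6 CPM in cluster 10 and 37.1 ± 1.89 CPM in resting cDC1s) near *Bcl3*. These values are descriptions over sums that are not independent, and carry no test.

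Since members were higher together in clusters 8, 9 and 10, their promoters were searched for the κB consensus, the 10-letter binding motif of NF-κB, on both strands of the 250 bases before each transcript start in RefSeq (GRCm38.p6). Of the 10 members, 7 were matched, with 10 windows, and *Relb*, *Nfkb1* and *Nfkbiz* were not. The consensus was found in 7 of the 10 windows, in 5 members, and in 7.25% of 32851 windows of all genes. It was found in windows of *Rel*, *Nfkb2*, *Nfkbia*, *Nfkbie* and *Tnfaip3* (1 of 2 windows), and not in those of *Rela* and *Bcl3*. More than 1 of the matching windows belongs to *Nfkb2*, so the windows are not independent. The members were chosen by name as genes of this pathway, and a link between the matches and the levels was not tested. The windows of 3 members, a subunit and a pair of inhibitors, are shown 5′ to 3′ with the match in capitals. That of *Rel* is chr11:23770970-23771219, minus strand, with 2 overlapping matches that start 92 and 91 bases before the start and 1 annotated exon base at its end. That of *Nfkbia* is chr12:55492648-55492897, minus strand, with a match starting 29 bases before the start, and that of *Nfkbie* is chr17:45555450-45555699, plus strand, with a match starting 106 bases before it. Neither of these 2 windows holds an annotated exon base. A match is a run of letters, and binding was not measured here.
Rel: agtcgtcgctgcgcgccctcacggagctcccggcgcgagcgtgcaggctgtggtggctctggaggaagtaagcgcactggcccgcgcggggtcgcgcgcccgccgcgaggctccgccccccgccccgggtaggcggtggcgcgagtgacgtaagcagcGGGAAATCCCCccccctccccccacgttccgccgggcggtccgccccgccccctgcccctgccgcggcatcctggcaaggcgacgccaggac
Nfkbia: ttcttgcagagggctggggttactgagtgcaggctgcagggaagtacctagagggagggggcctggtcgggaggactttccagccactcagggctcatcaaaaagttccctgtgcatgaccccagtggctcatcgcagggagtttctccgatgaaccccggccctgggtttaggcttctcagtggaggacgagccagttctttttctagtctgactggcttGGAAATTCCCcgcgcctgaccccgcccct
Nfkbie: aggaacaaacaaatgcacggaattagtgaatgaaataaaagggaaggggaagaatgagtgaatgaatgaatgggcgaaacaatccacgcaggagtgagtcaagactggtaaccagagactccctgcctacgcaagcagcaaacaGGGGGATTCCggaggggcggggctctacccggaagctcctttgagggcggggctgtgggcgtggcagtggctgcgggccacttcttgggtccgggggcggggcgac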

How the data were processed

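Per library, the authors used Cell Ranger 6.0.1 (per the matrix header) and mm10 to make the deposited matrix of UMI counts, which are not normalised. They also deposited a table with the cluster of each of 5806 cDC1s, called with Seurat (the sources differ on its version), which was used for the clusters only. UMIs were summed per library and cluster or group in Python 3.11.15 (numpy 2.4.6, pandas 2.3.3) and given as CPM of all UMIs of the sum. The 38 symbols shared by several genes were kept apart by identifier. Sums were tested with edgeR 4.0.16 in R 4.3.3 (TMM factors, filterByExpr, quasi-likelihood F-test, Benjamini-Hochberg adjustment over all genes tested, 0.05), with standard errors from the fold change and F. All 10 members passed the filter in all 8 comparisons. The code was tested on simulated counts with 200 changed genes.

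Both sums of a library come from 1 pool of mice, which makes them a pair. Deviations of paired sums from their group means correlated with r = 0.236 (WT), 0.204 (sGSN-/-) and 0.238 (sGSN-/-Clec9a-/-) for activated against resting cDC1s, and 0.0756, -0.0229 and 0.0839 for cluster 8 against cluster 10. Alternatives were the library as a block, DESeq2 1.42.0, scaling by library size alone, leaving out the filter, leaving out 1 library in turn, cells thinned to 3900 UMIs, doublets left out, clusters weighted equally, and new clusters made without 116 NF-κB genes (scanpy 1.11.5, leidenalg 0.10.2, 2000 variable genes, 50 components, 20 neighbours, resolution 1). Scrublet's automatic threshold called 466, 0 and 0 barcodes in the WT, sGSN-/- and sGSN-/-Clec9a-/- libraries, so the top 6% of scores per library was used, 766, 490 and 556 barcodes.

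The members and lists were chosen with earlier results of these data known. All members are named. Of each list, up to 3 genes with the largest and up to 3 with the smallest log2 fold change past the threshold in activated cDC1s, cluster 8 or cluster 9 could be named, and for each member the 3 other genes with the highest Pearson r. Some marker results are not reported.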

Additional observations from a re-analysis of the deposited data

How the results depend on the processing

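Over 80 pairs of a member and a comparison, the alternatives gave 800 values, of which 752 kept their direction and their side of the threshold, 31 lost a call, 8 gained one and 9 turned direction. None of the 63 pairs called in the fit of the report turned direction. The library as a block changed the calls of *Rel* in cluster 7 and of *Nfkbie* and *Bcl3* in cluster 8 against cluster 10, and no other call of a member. Among list genes named in the report it ended that of *Sod2* in cluster 8. It also changed the counts of some lists, as given there.

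With cells thinned to 3900 UMIs the genes past the threshold were 1580 in activated cDC1s (2606 without thinning), 991 in cluster 7 (1967), 2849 in cluster 8 (4478), 215 in cluster 9 (549), 653 in cluster 10 (1247), 1179 in cluster 8 against cluster 9 (2348), 746 in cluster 8 against cluster 10 (1479) and 2688 in early cDC1s (4114). Thinned sums hold fewer UMIs. The share of *Relb* and *Nfkb2* was then 12.2% in cluster 9 and 15.2% in cluster 10. Leaving out 1 library gave 1460 to 2511 genes in activated cDC1s, 1227 to 1361 in cluster 7, 2925 to 4567 in cluster 8, 305 to 367 in cluster 9, 610 to 773 in cluster 10, 1378 to 2525 in cluster 8 against cluster 9, 939 to 1697 in cluster 8 against cluster 10 and 2579 to 3384 in early cDC1s, with fewer libraries per fit.

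In cluster 8 against cluster 10, 0 members were called lower with DESeq2, no filter, the library as a block, thinned cells or doublets left out, and 0 to 0 without 1 library. In early cDC1s 1 to 2 members were called lower without 1 library. With new clusters made without NF-κB genes, 8 members were called higher in cluster 7, where 1506 of 10365 genes tested were called higher and 1002 lower. Log2 fold changes turned direction for *Rela* (0.00553), *Tnfaip3* (0.116) and *Bcl3* (0.371) in cluster 7, *Nfkbia* in cluster 8 against cluster 9 (0.0173) and *Rela* in early cDC1s (0.0211). Cluster 10 had no counterpart there and has no value. Without 1 library the log2 fold changes ran from -0.0686 to 0.0382 for *Rela* in cluster 7, from -0.0262 to 0.614 for *Nfkbiz* in cluster 8 against cluster 10, and from -0.0789 to 0.0193 for *Rela* and from -0.0113 to 0.142 for *Relb* in early cDC1s. The cause was not tested. Cluster 10 summed to 891318 UMIs, so fewer genes could be tested against it.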
